A study of Homo sapiens with 10 samples.

Results

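The 40 genes described here are a fixed set of cell cycle genes, 22 that build and run the DNA replication machinery and 18 that act in mitosis. They were chosen by name, for their known roles, when earlier results of these data were already known. All 40 are listed in both count tables, which hold 22750 genes for HEK293T cells and 20965 for NPCs, with 19665 in common. RNA-seq was available for 10 libraries. In HEK293T, a human embryonic kidney line that carries the SV40 large T antigen, 3 libraries came from WT cells and 3 from cells made homozygous ZNF274 KO by CRISPR-Cas9. In neural progenitor cells (NPCs), 2 libraries came from WT cells and 2 from ZNF274 KO cells. The NPCs were derived from H1 human embryonic stem cells by an embryoid body protocol in neural induction medium, and the deletion was made in the stem cells before differentiation. The KO lines are clones, and no label ties a library to a clone, so the p-values below measure the spread between these libraries. The libraries are named by the number in their labels: S15, S16 and S17 (WT) and S18, S19 and S20 (KO) in HEK293T, and S3 and S5 (WT) and S1 and S2 (KO) in NPCs.

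Dividing cells copy their genome in S phase and separate the copies in mitosis, and the genes for each task are transcribed in different windows of the cycle. Replication genes are switched on at the passage from G1 to S, when E2F factors are freed from the retinoblastoma proteins. Mitotic genes follow in G2, when the MuvB core, with B-MYB and FOXM1, replaces the DREAM repressor at promoters that carry a CCAAT box and a cell cycle genes homology region (CHR). Cells that leave the cycle shut both programs down, and the summed RNA of these genes is widely read as a sign of how many cells of a culture are cycling. In bulk RNA, fewer cycling cells and less of the RNA per cycling cell cannot be told apart.

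ZNF274 itself was read first as a check of the labels. Its counts were 445, 423 and 492 for WT HEK293T, 491 and 496 for WT NPCs, and 0 in each of the 5 KO libraries, where a count of 0 allows up to 3 counts. The libraries held 21421013 to 32285876 counts in HEK293T and 18621266 to 23035490 in NPCs, and no member had fewer than 314 counts in any library. All 40 members passed the filter on low counts in every comparison. Among the HEK293T libraries, KO S18 stood apart: its Spearman correlation across genes with KO S19 and KO S20 was 0.974 for each, against 0.989 between those 2, and it was the lowest or the highest of the 6 libraries for 27 of the 40 members. The KO libraries labelled NPC went against the label. Of 11 neural progenitor markers, 8 were called lower in KO and none higher, against 8.36% of all genes called lower and 8.45% called higher, by edgeR's quasi-likelihood test with the thresholds of the study, an FC above 2 and an adjusted p below 0.05. SOX2 stood at 227 and 219 CPM in WT (counts per 1000000 counts of the library, scaled by TMM) against 12.7 and 21.1 in KO, and LHX2 at 19.3 and 29.1 against 0.395 and 0.135. NEUROG2 and HES5 were at 0 in both KO libraries but low in WT as well, at 3 and 34 counts for NEUROG2 and 6 and 4 for HES5. The summed level of the 11 was 2884 and 3848 CPM in WT and 3244 and 3181 in KO, which is mostly NES, at 2264 and 2996 in WT and 3183 and 3087 in KO. Of 12 mesenchymal markers, 6 were called higher (8.45% of all genes). The summed level of the 12 was 2273 and 1390 CPM in WT against 6314 and 5430 in KO. In KO it is mostly COL1A1, at 644 and 558 CPM in WT and 3457 and 3504 in KO. The groups overlapped for COL1A2, at 1317 and 590 CPM in WT and 1198 and 808 in KO. Of 10 neuronal markers, 4 were called lower (8.36% of all genes) and 1 higher, near the 8.45% of all genes, and their sum was 1084 and 1178 CPM in WT against 220 and 175 in KO. This sum is mostly MAP2, at 992 and 1089 CPM in WT and 166 and 129 in KO, while STMN2 was at 15.1 and 18.02 against 25.8 and 15.6 and TUBB3 at 5.02 and 8.24 against 4.74 and 7.97. Of 8 pluripotency markers 5 were tested, of which LIN28A (63.7 and 84.7 CPM in WT, 1.14 and 1.85 in KO) and DNMT3B (68.9 and 82.0 against 24.3 and 15.8) were called lower and ZFP42 higher, and the sum of the 5 was 208 and 243 CPM in WT and 94.6 and 80.9 in KO. The part of this change of cell type markers in the values of the members below was not tested.

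The promoters of the 2 classes differ in the E2F motif and the CHR, while the CCAAT box is common in both. The genes were chosen by name and not by sequence. Their known roles go with these motifs, as described above, so the shares describe the classes and are no independent support. In windows of RefSeq (GRCh38.p14) that run from 250 bases before to 50 after a transcription start, which were found for 19 of the 22 replication genes and 16 of the 18 mitotic genes, 3 motifs were searched on both strands: E2F (TTTCGCGC, TTTGGCGC, TTTCCCGC or TTTGCCGC), CHR (TTTGAA or TTCGAA) and the CCAAT box (CCAAT). E2F was found for 12 of the 19 replication genes (63.2%) and 2 of the 16 mitotic genes (12.5%), against 3.99% of all 27305 genes with a window. CHR was found for 2 of the 19 replication genes (10.5%) and 11 of the 16 mitotic genes (68.8%), against 19.5% of all. The CCAAT box was found for 13 of 19 (68.4%) and 14 of 16 (87.5%), against 39.7% of all, and CHR together with CCAAT for 10 of the 16 mitotic genes (62.5%), against 7.85% of all. The 3 replication members MCM4, MCM5 and CCNE2 and the 2 mitotic members AURKA and TPX2 had no window.

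The replication windows are shown for CDT1, the 1 replication gene that fell more than 2-fold in KO NPCs, and for CDC6 and E2F1, which hold the same motif and did not pass the test there. Coordinates are exact matches of each window to GRCh37 (hg19), the build of the count tables. Each window covers the promoter and the start of exon 1. The capitals mark E2F and CCAAT matches, which do not overlap each other.
CDT1, chr16:88869947-88870246, plus strand: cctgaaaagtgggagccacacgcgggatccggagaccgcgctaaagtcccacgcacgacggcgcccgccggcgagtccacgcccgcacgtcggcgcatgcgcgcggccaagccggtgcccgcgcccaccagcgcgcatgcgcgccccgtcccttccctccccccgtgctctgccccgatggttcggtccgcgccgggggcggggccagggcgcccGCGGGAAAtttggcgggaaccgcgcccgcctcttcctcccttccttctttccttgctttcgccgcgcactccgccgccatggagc
CDC6, chr17:38443881-38444180, plus strand: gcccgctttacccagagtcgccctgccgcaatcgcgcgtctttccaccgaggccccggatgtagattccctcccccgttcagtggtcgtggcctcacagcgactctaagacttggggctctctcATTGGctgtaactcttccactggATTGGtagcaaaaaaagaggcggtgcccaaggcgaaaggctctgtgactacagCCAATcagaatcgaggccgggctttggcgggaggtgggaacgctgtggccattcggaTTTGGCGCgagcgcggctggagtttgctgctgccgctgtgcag
E2F1, chr20:32274142-32274441, minus strand: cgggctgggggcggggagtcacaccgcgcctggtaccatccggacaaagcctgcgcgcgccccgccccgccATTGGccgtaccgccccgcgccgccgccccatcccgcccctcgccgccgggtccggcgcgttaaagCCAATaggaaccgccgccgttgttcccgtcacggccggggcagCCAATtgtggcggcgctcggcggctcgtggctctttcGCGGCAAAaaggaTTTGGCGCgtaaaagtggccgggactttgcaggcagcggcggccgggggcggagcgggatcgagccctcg

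The mitotic windows are shown for the 5 mitotic genes that fell more than 2-fold in KO NPCs. All 5 hold both a CHR and at least 2 CCAAT boxes in 1 orientation or the other. So do CDC20, MKI67 and 1 of the 2 windows of CDK1, which did not reach that fold change. The capitals mark CHR, CCAAT and, in NUSAP1 only, E2F matches, and none of them overlap.
CCNB2, chr15:59397095-59397394, plus strand: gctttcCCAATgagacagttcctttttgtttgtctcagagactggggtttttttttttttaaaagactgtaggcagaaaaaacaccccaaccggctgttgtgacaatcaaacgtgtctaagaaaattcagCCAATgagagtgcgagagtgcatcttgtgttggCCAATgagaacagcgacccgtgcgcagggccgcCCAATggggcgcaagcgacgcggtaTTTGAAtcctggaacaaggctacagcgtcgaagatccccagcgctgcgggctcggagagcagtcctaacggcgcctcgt
TOP2A, chr17:38574099-38574398, minus strand: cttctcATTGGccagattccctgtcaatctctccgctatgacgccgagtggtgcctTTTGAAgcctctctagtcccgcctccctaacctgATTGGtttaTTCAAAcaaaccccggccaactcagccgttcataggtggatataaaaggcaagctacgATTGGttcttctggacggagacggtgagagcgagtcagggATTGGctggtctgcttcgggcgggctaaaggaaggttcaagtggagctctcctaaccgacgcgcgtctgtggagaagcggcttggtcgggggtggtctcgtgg
BUB1, chr2:111435591-111435890, minus strand: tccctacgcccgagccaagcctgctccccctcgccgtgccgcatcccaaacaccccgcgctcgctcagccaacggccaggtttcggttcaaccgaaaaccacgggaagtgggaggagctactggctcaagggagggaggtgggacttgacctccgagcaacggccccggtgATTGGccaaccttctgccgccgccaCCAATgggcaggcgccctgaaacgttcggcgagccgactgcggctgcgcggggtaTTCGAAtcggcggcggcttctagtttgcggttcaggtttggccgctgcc
CENPF, chr1:214776288-214776587, plus strand: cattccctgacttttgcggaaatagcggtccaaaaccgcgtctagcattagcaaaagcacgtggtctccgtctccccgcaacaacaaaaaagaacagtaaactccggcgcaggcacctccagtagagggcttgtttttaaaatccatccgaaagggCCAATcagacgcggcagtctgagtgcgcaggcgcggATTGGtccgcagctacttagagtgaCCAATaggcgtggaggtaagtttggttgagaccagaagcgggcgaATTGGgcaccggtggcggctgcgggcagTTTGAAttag
NUSAP1, chr15:41624829-41625128, plus strand: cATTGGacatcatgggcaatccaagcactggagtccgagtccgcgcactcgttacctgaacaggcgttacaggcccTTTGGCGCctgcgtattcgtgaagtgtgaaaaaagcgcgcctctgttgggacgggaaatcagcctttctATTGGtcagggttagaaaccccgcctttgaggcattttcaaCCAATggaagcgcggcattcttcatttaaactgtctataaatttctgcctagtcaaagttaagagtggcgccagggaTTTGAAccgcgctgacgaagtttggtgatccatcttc

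In CCNB2 the CHR lies 29 bases before the start, downstream of all 4 of its CCAAT boxes. In TOP2A the matches lie 194 and 151 bases before the start, and in CENPF the CHR lies 41 bases after it. The E2F match of CDT1 lies 35 bases before the start and those of E2F1 33 and 20 bases before it. A match gives letters in a window and not a bound site.

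The first comparison asked whether the proliferation genes differ between WT and ZNF274 KO NPCs. Most were lower in KO, with a larger median change over the mitotic genes. A gene is said below to have fallen or risen at an adjusted p below 0.05, and to have been called where its FC was also above 2. In edgeR's quasi-likelihood test, 17 of 18 mitotic genes and 15 of 22 replication genes fell, and none rose, against 13.7% of the 20577 genes tested that fell, while 3078 of the 20577 rose. With the threshold on FC, 5 of 18 mitotic and 1 of 22 replication genes were called lower, against 8.36% of all genes, so the share of replication genes called was below the background. Every mitotic gene and 16 of the 22 replication genes had both KO libraries below both WT libraries, which held for 33.8% of all genes. The median log2 FC was -0.85 over the mitotic genes and -0.55 over the replication genes, where the median of all genes was -0.02. Together the 40 genes took 1.09 and 1.05% of all counts in WT and 0.591 and 0.638% in KO.

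**Figure D1:**
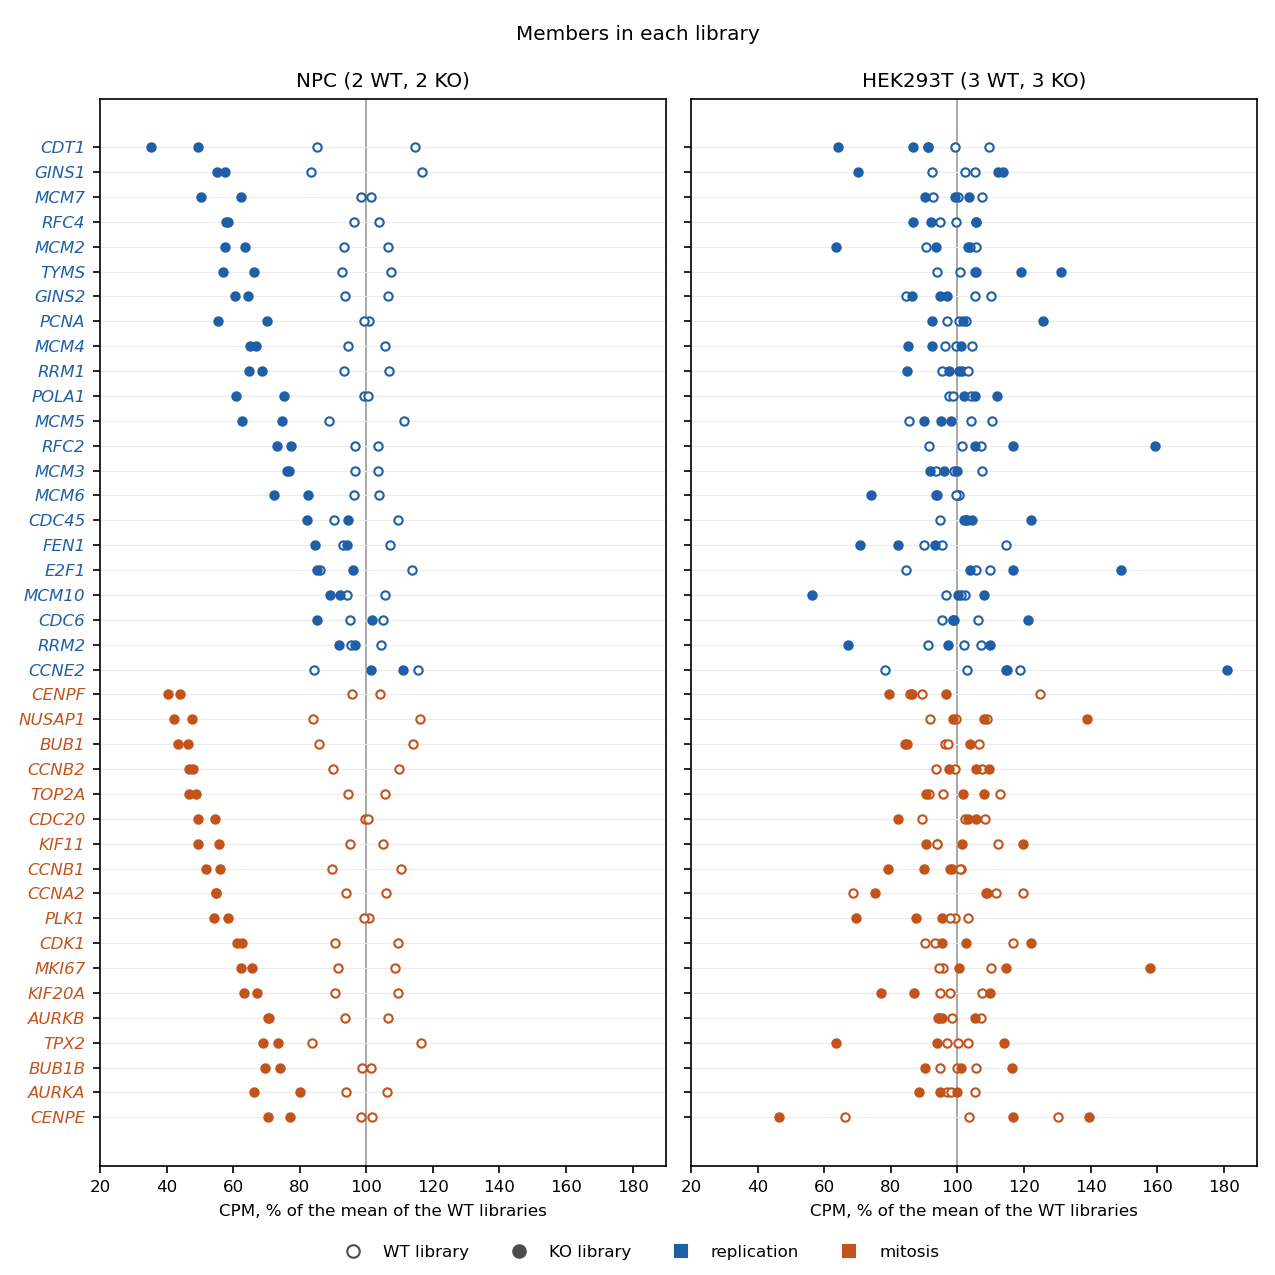
Each row is 1 member and each point 1 library, as CPM in percent of the mean of the WT libraries (open points WT, filled points KO), for NPCs on the left and HEK293T on the right. In NPCs the 2 filled points lie left of the 2 open ones for all 18 mitotic genes and 16 of 22 replication genes, and in HEK293T filled and open points overlap for 35 of 40.

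Loading of the helicase is the first step of replication, and CDT1, the factor that brings the MCM complex to origins, was the replication gene with the largest change. Its level was 43.9 and 59.1 CPM in WT and 18.2 and 25.5 in KO, so both KO values lay under both WT values. It fell 2.35-fold (log2 FC -1.23, SE 0.217, n = 2 and 2, edgeR adjusted p = 0.00606). CDC6, the other loading factor, stood at 96.8 and 87.7 CPM in WT and 78.7 and 93.8 in KO. Here the groups overlapped, and the log2 FC was -0.10 with a 95% interval of -0.40 to 0.21 (adjusted p = 0.624).

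The 6 subunits of the MCM2 to MCM7 helicase, which unwinds the DNA, all fell, by log2 FCs between -0.83 and -0.37. MCM7 went from 423 and 436 CPM in WT to 216 and 268 in KO (log2 FC -0.83, SE 0.127, edgeR adjusted p = 0.00357). MCM2 went from 230 and 263 CPM to 142 and 157 (log2 FC -0.72, SE 0.117, adjusted p = 0.00435). MCM4 went from 265 and 296 CPM to 182 and 188 (log2 FC -0.60, SE 0.107, adjusted p = 0.00638). MCM6, at 249.3 and 230.9 CPM against 173 and 198, changed least and passed narrowly (log2 FC -0.37, adjusted p = 0.0485). None of the 6 reached a 2-fold change.

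Of the factors that activate the loaded helicase, the 2 GINS subunits fell. GINS2 went from 118 and 134 CPM to 76.5 and 81.1 (log2 FC -0.68, SE 0.117, edgeR adjusted p = 0.00552), and GINS1 from 49.8 and 69.9 CPM to 33.0 and 34.4 (log2 FC -0.83, adjusted p = 0.0138). CDC45, their partner in the active helicase, stood at 33.6 and 40.7 CPM in WT and 30.6 and 35.1 in KO, and MCM10 at 48.9 and 54.9 against 46.3 and 47.8. Neither passed the test (adjusted p = 0.448 and 0.447).

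At the fork itself, 4 of 5 members fell. PCNA, the sliding clamp that holds the polymerases on DNA, was at 232 and 228 CPM in WT and 127 and 161 in KO (log2 FC -0.67, SE 0.134, edgeR adjusted p = 0.0102). RFC4, a subunit of the loader that places the clamp, was at 65.1 and 60.4 CPM in WT and 36.3 and 36.8 in KO (log2 FC -0.78, SE 0.121, adjusted p = 0.00363), and RFC2 of the same loader fell less (log2 FC -0.41, adjusted p = 0.0305). POLA1, the catalytic subunit of the polymerase that starts each strand, fell with a log2 FC of -0.55. FEN1, which trims the flaps of Okazaki fragments, was at 126 and 145 CPM in WT and 115 and 128 in KO, with overlapping groups (adjusted p = 0.371).

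The enzymes that supply nucleotides were split. TYMS, which makes thymidylate, went from 275 and 238 CPM to 146 and 170 (log2 FC -0.70, SE 0.127, edgeR adjusted p = 0.0069). RRM1, the large subunit of ribonucleotide reductase, went from 485 and 424 CPM to 295 and 312 (log2 FC -0.58, adjusted p = 0.00841). RRM2, the small subunit of the same enzyme, stood at 334 and 365 CPM in WT and 321 and 337 in KO, so the groups overlapped (log2 FC -0.09, 95% interval -0.33 to 0.16, adjusted p = 0.582). The 2 regulators of S phase entry did not pass either. E2F1 was at 39.8 and 52.6 CPM in WT and 39.4 and 44.3 in KO (adjusted p = 0.575), and CCNE2, which encodes cyclin E2, at 14.9 and 20.4 against 19.6 and 17.9, the 1 member with a positive log2 FC (0.09, adjusted p = 0.789). The 7 replication members that did not pass were thus CDC6, CDC45, MCM10, FEN1, RRM2, E2F1 and CCNE2, and the interval of none of them reached a log2 FC of -1.

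Among the mitotic genes the 4 that form the CDK1 engine fell. CDK1, the kinase that drives entry into mitosis, was at 219 and 181 CPM in WT and 122 and 125 in KO (log2 FC -0.69, SE 0.123, edgeR adjusted p = 0.00638). Its partner cyclin B1 (CCNB1) was at 463 and 377 CPM against 217 and 235 (log2 FC -0.89, SE 0.129, adjusted p = 0.0027). Cyclin B2 (CCNB2) was at 198 and 162 CPM against 84.1 and 86.5 and was called (2.11-fold, log2 FC -1.08, SE 0.128, adjusted p = 0.00124). Cyclin A2 (CCNA2), which acts in S phase and G2, was at 263 and 233 CPM against 136 and 136 (log2 FC -0.87, SE 0.109, adjusted p = 0.00157). The 3 mitotic kinases fell as well, PLK1 by a log2 FC of -0.82 (178 and 175 CPM in WT, 96.0 and 103 in KO), AURKB of -0.50 and AURKA of -0.45.

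Of the spindle checkpoint and its target, BUB1, the kinase that recruits checkpoint proteins to kinetochores, was called. It went from 262 and 197 CPM in WT to 99.5 and 107 in KO (2.23-fold, log2 FC -1.15, SE 0.151, edgeR adjusted p = 0.00186). CDC20, the activator of the anaphase-promoting complex that the checkpoint holds back, went from 268 and 270 CPM to 133 and 147 (log2 FC -0.94, SE 0.105, adjusted p = 0.000981). BUB1B, which encodes the checkpoint protein BUBR1, fell less (log2 FC -0.48, adjusted p = 0.014).

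CENPF, a large kinetochore protein that accumulates in G2, had the lowest p of all 40 members. It went from 783 and 851 CPM in WT to 330 and 361 in KO (2.37-fold, log2 FC -1.24, SE 0.107, edgeR adjusted p = 0.000355). CENPE, the kinetochore motor, changed by a log2 FC of -0.44 only (adjusted p = 0.0231). On the spindle, NUSAP1, which bundles microtubules, was called, at 350 and 253 CPM in WT and 127 and 143 in KO (2.23-fold, log2 FC -1.16, SE 0.166, adjusted p = 0.00265). KIF11, the motor that pushes the spindle poles apart, went from 302 and 273 CPM to 142 and 160 (log2 FC -0.93, SE 0.115, adjusted p = 0.00147). TPX2, which activates AURKA on the spindle, was the 1 mitotic gene that did not pass. It was at 1419 and 1022 CPM in WT, above 841 and 895 in KO (log2 FC -0.49, edgeR adjusted p = 0.0579).

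TOP2A, the topoisomerase that untangles sister chromatids, was called, at 903 and 808 CPM in WT and 401 and 417 in KO (2.09-fold, log2 FC -1.07, SE 0.106, edgeR adjusted p = 0.000616). MKI67, the protein behind the Ki-67 stain of cycling cells, was at 731 and 868 CPM in WT and 526 and 497 in KO, a fall of 1.56-fold (log2 FC -0.64, SE 0.118, adjusted p = 0.00707). This log2 FC was smaller in size than the median over the mitotic genes.

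Averaged over its members, the replication class stood at a mean log2 CPM of 6.86 and 6.98 in WT NPCs and 6.36 and 6.52 in KO NPCs, and the mitotic class at 8.16 and 8.001 in WT and 7.24 and 7.33 in KO. The difference between the classes in 1 library does not depend on how libraries are scaled. It was 1.30 and 1.02 in WT and 0.87 and 0.81 in KO (means 1.16 ± 0.20 and 0.84 ± 0.04, SD, n = 2 each), so the 2 KO libraries lay under the 2 WT libraries in the balance of mitotic to replication RNA as well. No test of this difference was made.

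**Figure D2:**
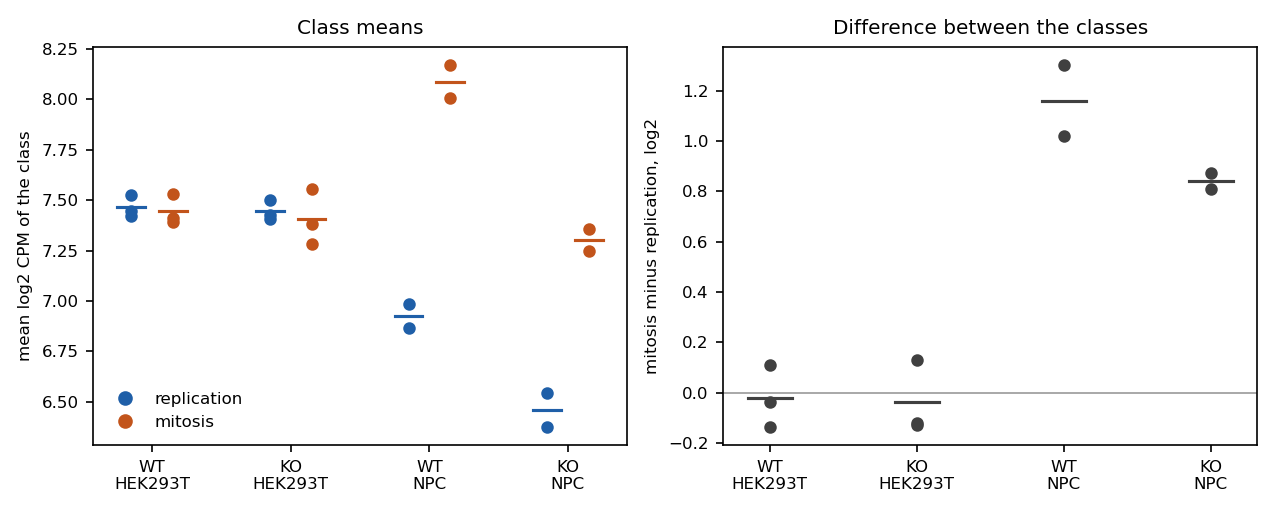
Left, mean log2 CPM over the 22 replication and 18 mitotic genes in each of the 10 libraries, scaled together, and right, the mitotic mean minus the replication mean in the same library (points, libraries; lines, group means). WT NPCs have the highest mitotic means, KO NPCs have the lowest replication means, and the WT and KO points of HEK293T overlap.

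The 2 classes were also set beside their motifs. The 12 replication genes with an E2F match had a median log2 FC of -0.67 in NPCs and the 7 without it -0.18, and the 11 mitotic genes with a CHR had -0.94 and the 5 without it -0.62. With CCAAT the replication genes went the other way, at -0.39 for the 13 with a match and -0.71 for the 6 without, while the mitotic genes had -0.91 (14 with) and -0.46 (2 without). The 2 replication genes with a CHR had -0.48 and the 17 without it -0.55, and the 2 mitotic genes with an E2F match -0.92 and the 14 without it -0.88. These are descriptions of small groups with no test. CDC6 and E2F1, whose windows are printed above, hold the E2F letters and are among the genes that did not pass.

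The NPC counts rest on few libraries. The log2 FCs of BUB1, CCNB2, NUSAP1 and TOP2A were between -0.98 and -0.90 without WT S3, so these genes were not called in that fit. Without KO S1, 10 mitotic and 0 replication genes fell, and without KO S2, 10 and 8. The number of all genes at an adjusted p below 0.05, in either direction, dropped as well, from 5890 of 20577 to 2442 of 20378 without KO S1 and 2807 of 20398 without KO S2. Without WT S3 the number of mitotic genes called dropped to 1, while that of all genes called went from 3459 to 3937 (S3 had the higher CPM of the 2 WT libraries for 13 of the 18 mitotic genes). With 1 KO library the spread of that group is taken to be that of the WT libraries. With 1 WT library it is taken to be that of the 2 KO libraries, which were more alike. The Spearman correlation across genes was 0.990 between KO S1 and S2 and 0.978 between WT S3 and S5.

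The same comparison in HEK293T asked whether loss of ZNF274 is accompanied by such a change in a line that proliferates without differentiating. No member fell or rose there. With edgeR, 0 of 40 members were called, and the lowest adjusted p of any was 0.726, where 0.489% of the 19018 genes tested were called. At an unadjusted p below 0.05 the count was 0 of 40 with edgeR, with DESeq2 and with voom, where edgeR gave 7.12% of all genes. The groups did not overlap for 5 of the 40 members (MCM6, CDT1, CCNB1 and PLK1 lower in KO and TYMS higher). This share is near the 12.4% of all genes. The median log2 FC was -0.07 over the replication and -0.03 over the mitotic genes, beside 0.01 over all genes, and the 40 genes took 0.846 to 0.887% of the counts in WT and 0.881 to 0.909% in KO.

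The intervals show what these 6 libraries could have resolved. The 95% interval of the log2 FC lay within 1 in either direction for all 40 members and within 0.5 for 24 of them. CENPE had the widest, from -0.76 to 0.78, since its libraries ran from 34.8 to 105 CPM. TOP2A was at 466, 548 and 445 CPM in WT and 495, 526 and 441 in KO (log2 FC 0.00, 95% interval -0.29 to 0.29, edgeR adjusted p = 0.998), so that the size seen in NPCs lies outside its interval. CENPF was at 196, 273 and 188 CPM in WT and 189, 211 and 174 in KO (log2 FC -0.19, 95% interval -0.56 to 0.17, adjusted p = 0.848). PCNA was at 333, 339 and 321 CPM against 416, 305 and 337 (log2 FC 0.09, SE 0.139, adjusted p = 0.914). In this gene KO S18 was the highest library and KO S19 the lowest.

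The replication genes with the lowest p in HEK293T did not share a direction. RFC2 was at 131, 112 and 124 CPM in WT and 195, 143 and 129 in KO (log2 FC 0.35, SE 0.168, edgeR adjusted p = 0.726), and CCNE2 at 26.1, 30.1 and 19.9 against 45.9, 29.1 and 29.1 (log2 FC 0.45, SE 0.223, adjusted p = 0.727). In both the highest value was that of KO S18. E2F1 was at 57.9, 46.3 and 60.2 CPM in WT and 81.8, 56.8 and 63.9 in KO (log2 FC 0.30, SE 0.174, adjusted p = 0.775). TYMS was at 235, 210 and 225 CPM against 293, 266 and 236, all 3 KO values above the WT values (log2 FC 0.25, SE 0.131, adjusted p = 0.748). CDT1 was at 156, 130 and 142 CPM against 130, 91.4 and 124, all 3 KO values below them (log2 FC -0.31, SE 0.16, adjusted p = 0.745). FEN1 was at 301, 237 and 251 CPM against 186, 216 and 245 with overlap (log2 FC -0.28, SE 0.15, adjusted p = 0.748). MCM2 was at 503, 432 and 494 CPM against 302, 446 and 491, with KO S18 alone below the WT range (log2 FC -0.21, SE 0.173, adjusted p = 0.846).

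Among the mitotic genes in HEK293T, MKI67 was at 293, 254 and 251 CPM in WT and 304, 420 and 267 in KO (log2 FC 0.31, SE 0.171, edgeR adjusted p = 0.763), and KO S19 carried the highest value. PLK1 was at 213, 209 and 221 CPM in WT and 149, 205 and 187 in KO, which did not overlap (log2 FC -0.25, SE 0.144, adjusted p = 0.775). CCNB1 was at 298, 290 and 297 CPM against 233, 265 and 289, again without overlap (log2 FC -0.17, SE 0.127, adjusted p = 0.829). CDK1 was at 133, 166 and 129 CPM against 174, 146 and 136 (log2 FC 0.09, SE 0.154, adjusted p = 0.921). NUSAP1 was at 136, 148 and 125 CPM against 189, 134 and 147 (log2 FC 0.20, SE 0.156, adjusted p = 0.829), with the highest value again in KO S18. BUB1 was at 185, 205 and 187 CPM against 162, 199 and 163 (log2 FC -0.14, SE 0.135, adjusted p = 0.873).

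**Figure D3:**
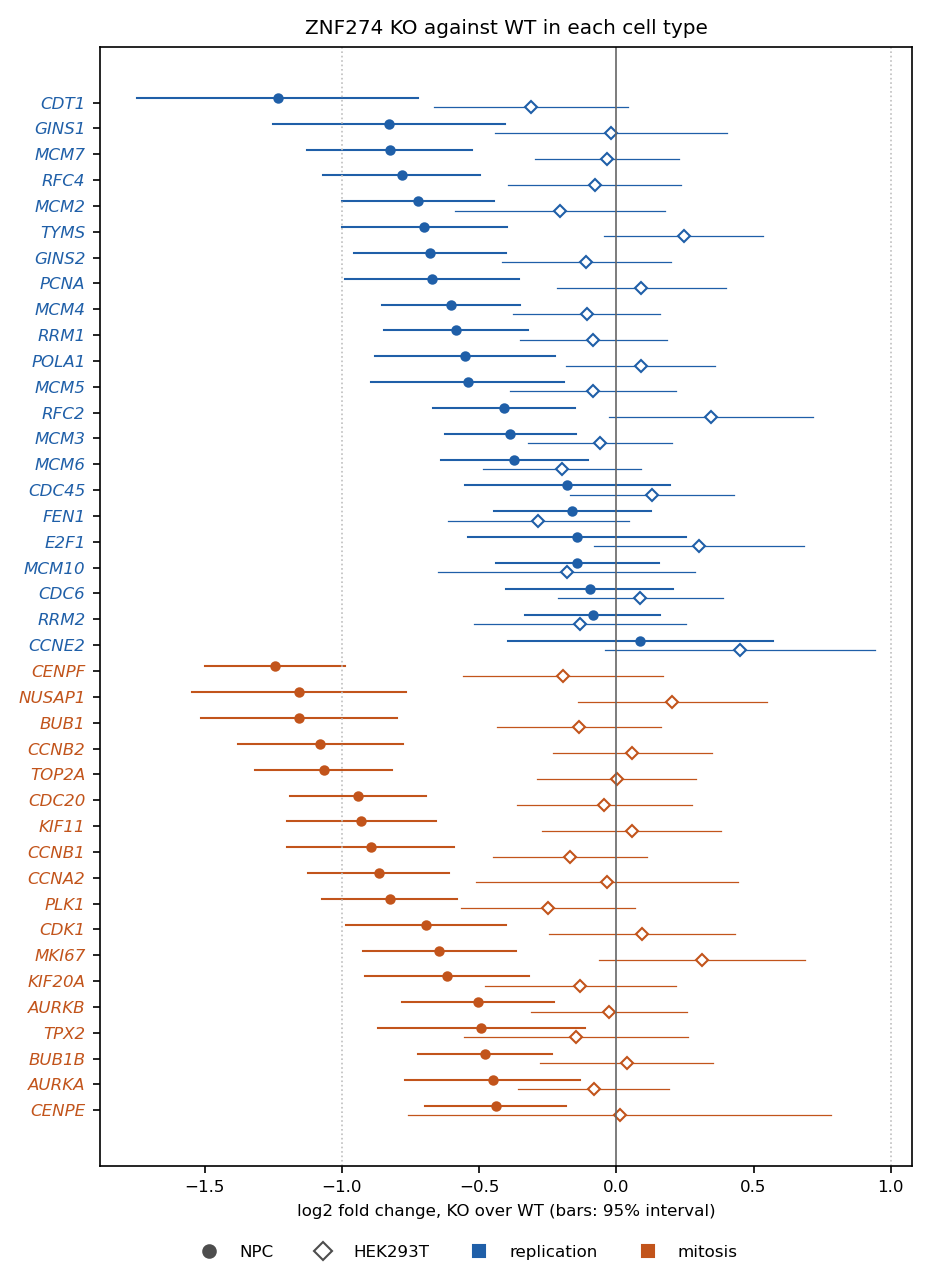
Log2 fold change of KO over WT for each member, with its 95% interval, in NPCs (filled circles) and HEK293T (open diamonds), replication genes in blue and mitotic genes in orange. The dotted lines mark a 2-fold change. The NPC estimates of the mitotic genes lie between -1.24 and -0.44, and each HEK293T interval holds 0.

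Whether the 2 cell types differ in their response was tested directly, as the interaction of genotype and cell type in 1 fit of the 10 libraries over 19255 genes. The effect was lower in NPCs than in HEK293T, at an adjusted p below 0.05, for 10 of 18 mitotic and 5 of 22 replication genes, against 7.34% of all genes, and higher for none of the 40. The mitotic genes with the lowest p were CCNB2, with a difference of effects of -1.12 on the log2 scale (SE 0.189, adjusted p = 0.0022), TOP2A (-1.05, SE 0.187, adjusted p = 0.003) and NUSAP1 (-1.34, SE 0.253, adjusted p = 0.00411). The others were BUB1, KIF11, CDC20, CENPF, MKI67, CCNB1 and CDK1. The replication genes were TYMS (difference -0.93, SE 0.194, adjusted p = 0.00752), MCM7 (difference -0.77, SE 0.183, adjusted p = 0.0141), PCNA (difference -0.74, SE 0.214, adjusted p = 0.035), RFC4 and POLA1. CDT1, the 1 replication gene called in NPCs, had a difference of -0.90 that did not pass (adjusted p = 0.0502). For the other 5 subunits of the helicase and for all 3 mitotic kinases the test did not separate the cell types, which does not show that they respond alike. Without KO S1 of the NPCs the counts were 3 mitotic and 0 replication genes, and without KO S18 of HEK293T 11 replication genes. Over all genes, in either direction, the count moved too, from 2903 to 1530 without KO S1 and 3521 without KO S18. TYMS, MCM7 and CENPF were among the genes lost without KO S1 (edgeR adjusted p = 0.0571, 0.0945 and 0.0683). PCNA no longer passed without any 1 of WT S15, S16, S17, S3 or S5 or KO S1, with adjusted p-values between 0.0557 and 0.18. Cell type and count table coincide here, and so do the KO NPC libraries with their shift in cell type markers.

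The WT libraries give the level of the members before any deletion. Relative to WT HEK293T, WT NPCs had less replication RNA and more mitotic RNA. With edgeR in the fit of all 10 libraries, 14 of 22 replication genes were lower in NPCs at an adjusted p below 0.05 and none higher, where 25.4% of all genes were lower and 31.4% higher. Of the 18 mitotic genes, 11 were higher and 2 lower. With the threshold on FC, 4 replication genes were called lower (15.5% of all genes) and 4 mitotic genes higher (25.2% of all genes), so the share called was near the background in both classes. DESeq2 called 2 replication genes lower. The median log2 FC was -0.63 over the replication genes and 0.64 over the mitotic genes, beside 0.13 over all genes. The difference between the class means was 1.16 ± 0.20 (SD, n = 2) in WT NPCs and -0.02 ± 0.12 (SD, n = 3) in WT HEK293T. This comparison shares the WT NPC libraries with the KO comparison above, and cell type and table cannot be told apart.

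CDT1 differed most of the replication genes, at 43.9 and 59.1 CPM in WT NPCs and 156, 130 and 142 in WT HEK293T, each scaled within its own table, and it was called lower (2.76-fold in the joint fit, log2 FC -1.46, SE 0.208, edgeR adjusted p = 7.12e-05). CDC45 (log2 FC -1.13, SE 0.152, adjusted p = 4.58e-05), MCM10 (log2 FC -1.05, SE 0.227, adjusted p = 0.00167) and POLA1 (log2 FC -1.02, SE 0.135, adjusted p = 4.04e-05) were called as well, but close to the threshold on FC. With DESeq2, with its size factors and with library size alone, MCM10 and POLA1 were no longer called (log2 FCs between -0.98 and -0.93). Without WT S3 of the NPCs MCM10 (log2 FC -0.97) and CDC45 (log2 FC -0.997) were not called, and without WT S16 of HEK293T, or with edgeR's filterByExpr as the filter on low counts, POLA1 was not (log2 FC -0.99 for each). All 6 helicase subunits MCM2 to MCM7 were lower, by log2 FCs between -0.94 and -0.40. MCM3, with a log2 FC of -0.86 (SE 0.117, adjusted p = 4.88e-05), had the lowest p of them. The 3 enzymes of nucleotide supply, RRM1, RRM2 and TYMS, did not differ beyond their spread, with log2 FCs between 0.06 and 0.21.

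Among the mitotic genes CENPF was higher in WT NPCs by 3.75-fold (log2 FC 1.91, SE 0.164, edgeR adjusted p = 1.17e-06), with 783 and 851 CPM against 196, 273 and 188 in WT HEK293T. TPX2 (3.04-fold, log2 FC 1.60, SE 0.204, adjusted p = 2.94e-05), MKI67 (3.02-fold, log2 FC 1.60, SE 0.172, adjusted p = 7.57e-06) and NUSAP1 (2.23-fold, log2 FC 1.16, SE 0.175, adjusted p = 0.000119) were called too. Without WT S3 of the NPCs NUSAP1 was no longer called (log2 FC 0.90). The 2 Aurora kinases went the other way. AURKA was lower in NPCs by 1.65-fold and AURKB by 1.42-fold (log2 FC -0.72 and -0.51, adjusted p = 0.000582 and 0.00455), although TPX2, the activator of AURKA, was among the genes that were higher. Per kilobase of annotated exon, the most abundant members in WT NPCs were TPX2 at 340 ± 79.0 CPM per kb and CCNB1 at 173 ± 25.5, followed by PCNA at 165 ± 2.33, which differs from CCNB1 by less than the spread (SD, n = 2). In WT HEK293T they were PCNA at 235 ± 6.997, MCM7 at 139 ± 9.70 and CCNB1 at 121 ± 1.41, followed by FEN1 at 119.35 ± 14.8, which differs from CCNB1 by less than the spread (SD, n = 3).

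**Figure D4:**
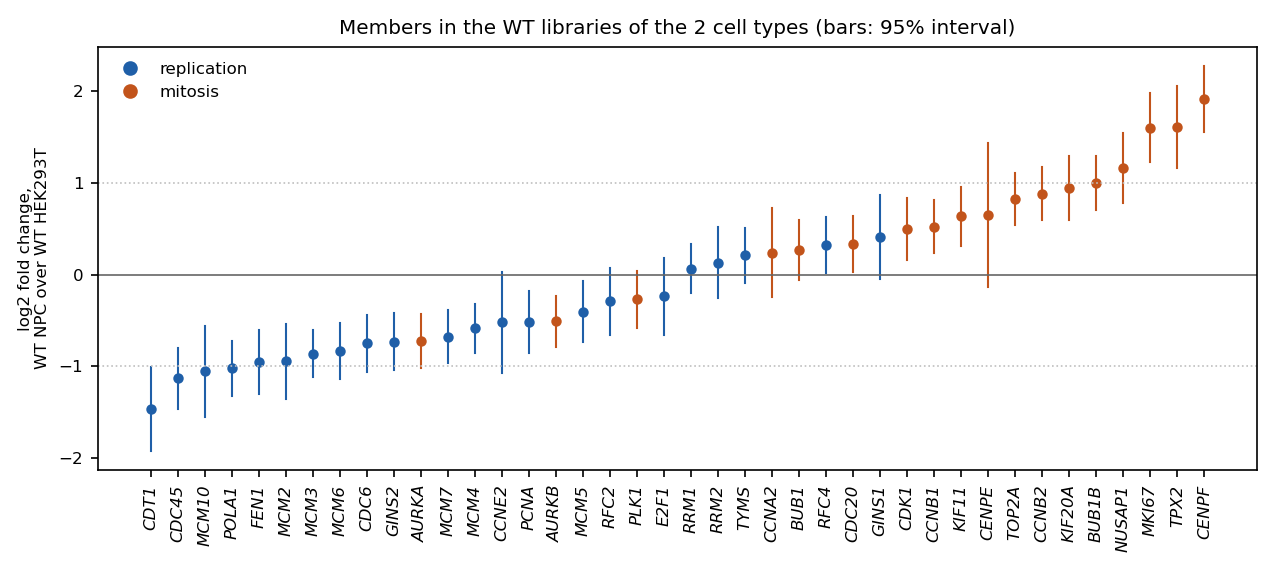
Log2 fold change of WT NPC over WT HEK293T for each member in order of size, with its 95% interval, replication genes in blue and mitotic genes in orange, and dotted lines at a 2-fold change. The low end, led by CDT1 at -1.46, is held mostly by replication genes, and the high end, led by CENPF at 1.91, by mitotic genes.

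The members are a sample of each program, and other genes of the same pathways were listed to see how they moved. Of 41 other replication genes tested in NPCs, 21 fell (13.7% of all genes) and 5 were called lower (8.36% of all genes). CDC7, the kinase that fires origins, was at 45.9 and 51.3 CPM in WT and 14.1 and 15.1 in KO (3.33-fold, edgeR adjusted p = 0.000334). TIMELESS, which protects forks, was at 208 and 230 CPM against 92.3 and 89.5 (2.41-fold, adjusted p = 0.000335), and PRIM1, the primase subunit that lays down RNA primers, at 43.4 and 46.5 against 17.7 and 17.9 (2.53-fold, adjusted p = 0.000752). The helicase RECQL4 (2.38-fold, adjusted p = 0.00422) and the activator E2F2 (2.44-fold, adjusted p = 0.0202) were the remaining calls. The median log2 FC of the 41 was -0.41. SLBP, which binds the stem-loop of histone mRNAs, rose (log2 FC 0.59, SE 0.169, adjusted p = 0.0402), and none was called higher.

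Of 48 other mitotic genes, 38 fell (13.7% of all genes) and 9 were called lower (8.36% of all genes), and the median log2 FC was -0.71. ANLN, which encodes the cytokinesis protein anillin, rose (log2 FC 0.48, SE 0.109, edgeR adjusted p = 0.0164), and none was called higher. NCAPD2, a condensin subunit, was at 448 and 457 CPM in WT and 203 and 215 in KO (2.16-fold, edgeR adjusted p = 0.000405). ESPL1, the separase that cuts cohesin, was at 73.1 and 72.8 CPM against 30.4 and 27.6 (2.52-fold, adjusted p = 0.000473), and the spindle motor KIF15 at 95.2 and 88.0 against 35.6 and 39.9 (2.43-fold, adjusted p = 0.000545). BIRC5, which encodes survivin, was at 206 and 218 CPM against 99.8 and 110 (2.02-fold, adjusted p = 0.000808). NEK2, DLGAP5, HMMR, CDC25C and TTK were called with them. In HEK293T none of the 89 other genes was called or passed an adjusted p of 0.05 with edgeR, and 6 of the 89 had an unadjusted p below 0.05, against 7.12% of all genes. In the interaction 21 of the 48 mitotic and 10 of the 41 replication genes were lower in NPCs, against 7.34% of all genes.

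**Figure D5:**
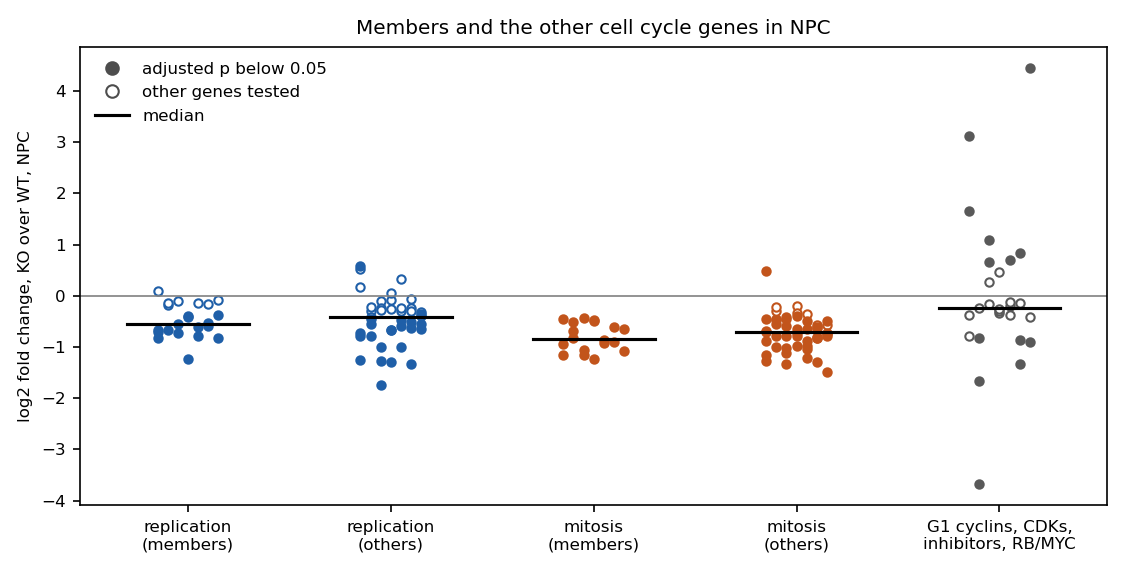
Log2 fold change of KO over WT in NPCs for the members, the other replication and mitotic genes, and the G1 regulators (filled points, adjusted p below 0.05; black lines, medians). Medians are -0.55 and -0.41 for replication, -0.85 and -0.71 for mitosis, and -0.23 for the G1 regulators, which spread from -3.68 to 4.45.

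The 27 genes that act before S phase, the D-type cyclins, their kinases, the CDK inhibitors and the RB and MYC genes among them, moved in both directions in NPCs. Of them 4 were called higher (8.45% of all genes) and 3 lower (8.36% of all genes). CDKN2A, which encodes the inhibitor p16, was at 0.568 and 1.07 CPM in WT and 17.3 and 18.6 in KO (log2 FC 4.45, SE 0.334, edgeR adjusted p = 0.000221). Its neighbour CDKN2B, the inhibitor p15, was at 23.2 and 16.4 CPM against 196 and 150 (log2 FC 3.13, SE 0.211, adjusted p = 0.000148). MYC was at 22.9 and 32.2 CPM against 84.6 and 88.0 (log2 FC 1.65, adjusted p = 0.000834) and CCND1, cyclin D1, at 251 and 241 against 533 and 517 (log2 FC 1.09, adjusted p = 0.000424). The genes called lower were MYCN, from 38.9 and 60.0 CPM to 4.94 and 2.79 (log2 FC -3.68, adjusted p = 0.000407), and the inhibitors CDKN1C (log2 FC -1.34, adjusted p = 0.00727) and CDKN2C (log2 FC -1.67, adjusted p = 0.026, at 3.64 and 2.35 CPM in WT and 0.840 and 1.04 in KO). CDKN1A, the inhibitor p21, was at 130 and 178 CPM in WT and 207 and 215 in KO and did not pass (adjusted p = 0.07). RB1 did not pass either (log2 FC -0.15). In HEK293T none of the 27 was called, and 4 had an unadjusted p below 0.05 with edgeR, against 7.12% of all genes.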

How the data were processed

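The deposited values are counts of reads per gene, without normalization. The authors made poly(A) libraries with a stranded kit, aligned reads to the hg19 build by HISAT2, and tallied those with a unique position by featureCounts. Versions, annotation release and the strand setting of the counting are not given in the sources used here, so for members that overlap a gene on the opposite strand, such as TYMS with ENOSF1 or NUSAP1 with OIP5, reads of the 2 may mix. Identifiers were matched to GENCODE (lifted to hg19): 22030 in HEK293T and 20366 in NPCs.

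Tests used edgeR 4.0.16 in R 4.3.3 (TMM, quasi-likelihood test, Benjamini-Hochberg over all genes tested), on genes whose total count was at least the number of libraries. The thresholds on FC (2) and adjusted p (0.05) are those of the study, whose own test was voom. SEs were calculated from the log2 FC and the F statistic. CPM are TMM-scaled within a table, and log2 CPM used a prior count of 2. Scripts were tested on simulated data. DESeq2 1.42.0, voom (limma 3.58.1), other scalings and filters, and leaving out each library served as alternatives. Groups came from the labels.

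Genes with full statistics were chosen by rule: members called, the 6 with the lowest p per class and cell type, and PCNA, MCM2, MKI67, TOP2A, CDK1 and CCNB1, with the lowest p of each class in the joint comparisons. Other members are named for their role in the pathway. The members, the gene lists and the tests were chosen with earlier results of these data known.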

Additional observations from a re-analysis of the deposited data

Results flagged for a closer look

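For 15 of the 40 members the effect of the KO in NPCs differed from that in HEK293T by the test of the interaction (edgeR, adjusted p below 0.05, all lower in NPCs), where 7.34% of all 19255 genes were lower and 1490 of the 19255 higher. Among the mitotic genes the difference on the log2 scale was -1.12 for CCNB2, -1.05 for TOP2A, -1.34 for NUSAP1, -0.998 for BUB1, -0.97 for KIF11, -0.88 for CDC20, -1.03 for CENPF, -0.94 for MKI67, -0.71 for CCNB1 and -0.77 for CDK1. Among the replication genes it was -0.93 for TYMS, -0.77 for MCM7, -0.74 for PCNA, -0.68 for RFC4 and -0.62 for POLA1. SEs ran from 0.183 to 0.253 and adjusted p-values from 0.0022 for CCNB2 to 0.0416 for POLA1.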

How the results depend on the processing

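All 18 mitotic and 21 of 22 replication genes had a negative log2 FC in NPCs, against 51.2% of all genes tested. Of the results below that moved, the cause was not tested unless named. Scaling by library size alone, which shifts the median of all genes in NPCs from -0.02 to -0.13, gave medians of -0.66 (replication) and -0.95 (mitosis) and 8 mitotic genes called lower. Without a threshold on FC, 15 replication and 17 mitotic genes were called. Leaving out each NPC library in turn gave 0 to 2 replication and 1 to 7 mitotic genes called, 0 to 15 replication and 10 to 18 mitotic genes at an adjusted p below 0.05, and a replication median between -0.64 and -0.41. The calls of BUB1, CCNB2, NUSAP1 and TOP2A were lost without WT S3 by the threshold on FC, with log2 FCs between -0.98 and -0.90. That of CDT1 was lost without KO S1 by its adjusted p and not by its FC, at a log2 FC of -1.01.

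In HEK293T no alternative called a member. The replication median was 0.0171 with library size alone and -0.101 to -0.00742 over the libraries left out. TOP2A, at 0.00 there, turned to -0.000999 with DESeq2, to -0.00101 with its size factors and to -0.00291 in the fit of 10 libraries, and ran from -0.0581 to 0.0964 over the libraries left out. Without KO S18, CDK1 (range -0.0161 to 0.219) and PCNA (range -0.0445 to 0.197) changed sign.

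In the interaction, the 5 replication genes became 10 with DESeq2, 12 with library size alone, 9 with filterByExpr and 0 to 11 over the libraries left out. The 10 mitotic genes became 16 with library size alone and 3 to 13 over the libraries left out. Over all genes, in either direction, the interaction's count went from 2903 to 3950 with DESeq2, 3192 with library size alone and 3048 with filterByExpr. Library size alone also moved the median difference of effects over all genes from -0.03 to -0.24. For WT NPC against WT HEK293T, DESeq2, its size factors and library size alone each called 2 replication genes lower. These settings and filterByExpr each found 1 replication gene higher at an adjusted p below 0.05. Over the libraries left out, 2 to 6 replication genes were called lower, 0 to 2 replication genes were higher, and 1 to 3 mitotic genes lower. No paired analysis was made, because no label ties a WT library to a KO library. In a figure of the study NPC values are averages over 2 parental lines, which the labels do not name. The sign of each class median in NPCs was the same under each alternative for which a median was calculated. These medians were not calculated for DESeq2, voom or the fit of all 10 libraries.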
